A study of Mus musculus with 5 samples.

Results

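The genes described here are 10 inflammatory chemokines and cytokines other than SDF-1: Ccl2, Ccl7, Cxcl1, Cxcl5, Cxcl16, Il6, Il11, Lif, Csf1 and Il33. They were taken by symbol, with every probe set of the array annotated to one of these symbols alone, which gave 17 of the 45101 probe sets. RNA of 5 cardiac progenitor clones (1D, 11B, 20B, 30 and 42) was hybridised to 1 Affymetrix expression array each. The cells came from left ventricles of mice aged 5 to 6 months, of the strain written C67BL/6 in the labels. They were selected with an antibody to Sca-1, a surface marker of progenitors, and grown first as floating cardiospheres and then attached. Each clone was picked with a cloning ring and subcloned 1 to 2 times, and no treatment or genetic change is given for any of them. A clone is therefore 1 cell line with 1 culture measured. The labels call the cells c-kit+, and c-kit, oct-4 and Sca-1 had been seen by immunostaining.

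Chemokines are small secreted proteins that steer leukocytes through receptors coupled to G proteins. Those with adjacent cysteines (Ccl2, Ccl7) mainly attract monocytes, and those with a residue between the cysteines and an ELR motif (Cxcl1, Cxcl5) attract neutrophils. Il6, Il11 and Lif belong to the family of cytokines that signal through the shared receptor chain gp130 to JAK kinases and STAT3. Csf1 keeps macrophages alive, and Il33 is a nuclear alarm cytokine released from damaged stromal cells. In the heart, stromal cells release several of these factors after injury, and NF-kappaB is a common activator of their genes.

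With 1 array per clone no difference has a replicate check and no test could be made. Differences were described by fixed sizes, and probe sets of the same gene served to estimate the error. Over 6681 such pairs the spread of a single probe set was 0.34 log2 units (SD), an error that covers neither culture nor RNA preparation. It describes the deviation of a single probe set from the other clones. For steps between clones and for averages over probe sets it is a yardstick only. The deposited values were ratios, taken relative to the median of the probe set over the clones or, for dim probe sets, relative to a floor. A ratio below 1 in every clone therefore lay below the floor. The number of arrays limits the precision. A probe set was followed between clones if its median was exactly 1 or at least 1 clone exceeded 1, and if its range exceeded 0.05 log2 units. By this rule 10 of the 17 probe sets and 5 of the 10 genes could be followed: Ccl2, Cxcl1, Cxcl16, Lif and Csf1. In the whole series 9435 of 18193 named genes could be followed. The Actb control of RNA quality, which divides 5' by 3' signal, was lowest in clone 11B, at 0.597 relative to clone 20B, and 0.743 in clone 30. The other clones lay between 1.00 and 1.08. The same control for Gapdh was also lowest in clone 11B but differed less, at 0.893, with 0.966 in clone 30 and 1.12 in clone 1D. The part of RNA quality in the low values of clones 11B and 30 was not tested.

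The 250 bases before the start site are shown for Cxcl1, Lif and Csf1, which deviated by at least 0.5 log2 units in clone 30. The first 2 lay above the other clones and Csf1 below, and for Cxcl1 this rested on 1 of 3 probe sets. Ccl2 also deviated that far in clone 30 (0.63), but no window was at hand for it. The sequences are from RefSeq, build GRCm38.p6, read 5' to 3' on the gene's strand, and capitals mark matches to the kappaB consensus, the site recognised by NF-kappaB. The windows are chr5:90890995-90891244 on the plus strand for Cxcl1, chr11:4257318-4257567 on the plus strand for Lif and chr3:107760470-107760719 on the minus strand for Csf1.
Cxcl1: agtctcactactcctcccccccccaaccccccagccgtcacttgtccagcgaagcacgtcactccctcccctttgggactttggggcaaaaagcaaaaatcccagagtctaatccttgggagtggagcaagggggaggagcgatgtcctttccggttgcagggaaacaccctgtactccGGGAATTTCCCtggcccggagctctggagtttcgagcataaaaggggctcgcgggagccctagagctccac
Lif: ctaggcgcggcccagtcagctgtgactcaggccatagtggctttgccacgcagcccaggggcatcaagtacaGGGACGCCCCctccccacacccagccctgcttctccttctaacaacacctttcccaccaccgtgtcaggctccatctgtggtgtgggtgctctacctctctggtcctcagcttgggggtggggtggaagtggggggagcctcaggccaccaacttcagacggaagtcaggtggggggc
Csf1: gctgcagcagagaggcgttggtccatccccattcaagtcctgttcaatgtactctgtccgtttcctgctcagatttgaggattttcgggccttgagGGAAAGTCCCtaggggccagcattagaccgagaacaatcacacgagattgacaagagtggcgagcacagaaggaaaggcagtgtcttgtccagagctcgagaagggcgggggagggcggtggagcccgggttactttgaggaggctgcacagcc

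The kappaB consensus is 3 G, a purine, 2 bases of any kind, 2 pyrimidines and 2 C, and it was searched on both strands. On Cxcl1 a match on each strand overlapped, beginning 71 and 70 bases before the start. On Lif the match began 178 bases and on Csf1 154 bases before it. RefSeq windows were at hand for 6 of the genes, 8 windows in all, and Il6 also held a match, 44 bases before its start. Ccl2, Ccl7, Cxcl5 and Cxcl16 had no window and were not searched. Of all 32851 windows of this length, 7.25% held a match. The AP-1 motif TGANTCA was in the windows of Il6, Lif and Il11 and in 6.75% of all windows, and the STAT motif TTCNNNGAA was in none of the 8 and in 7.02% of all. These matches are letters in a window and show no binding.

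Ccl2, the chemokine that draws monocytes out of the blood through Ccr2, differed most between the clones. Its deposited ratio was 1.028 in clone 1D, 0.639 in 11B, 1.000 in 20B, 1.237 in 30 and 0.279 in 42. Clone 42 was thus far below the rest, and clone 11B lay between it and the other 3. The level in clone 42 was 3.63-fold below the median of the other clones, a deviation of -1.86 log2 units, and the highest and lowest clones were 4.43-fold apart. Clone 42 lay 1.196 log2 units below the next clone, 11B, and clone 11B lay 0.65 below clone 20B, both more than the spread of 0.34. Clones 20B, 1D and 30 followed each other at steps of 0.04 and 0.27 log2 units, within that spread. The range of Ccl2, 2.15 log2 units, was larger than that of 98.7% of all followed genes. Ccl2 had a single probe set, so its own error could not be measured.

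In clone 42, Ccl2 was at least 1 log2 unit below all 4 other clones, as were 0.307% of the followed genes. That share was not planned and was taken for this clone and direction alone, so it is a description only. Among the 5 followed chemokines and cytokines it was the only one that ranged over 1 log2 unit or more, 1 of 5 against 13.0% of all followed genes, which at 5 genes is no result about the group. The median range was 0.78 log2 units in the 5 and 0.41 over all followed genes. Clone 11B, where Ccl2 deviated by -0.67, also had the lowest Actb control value (0.597). Whether RNA quality had a part in the lower Ccl2 of that clone was not tested. For clone 42 the same control was 1.08.

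**Figure D1:**
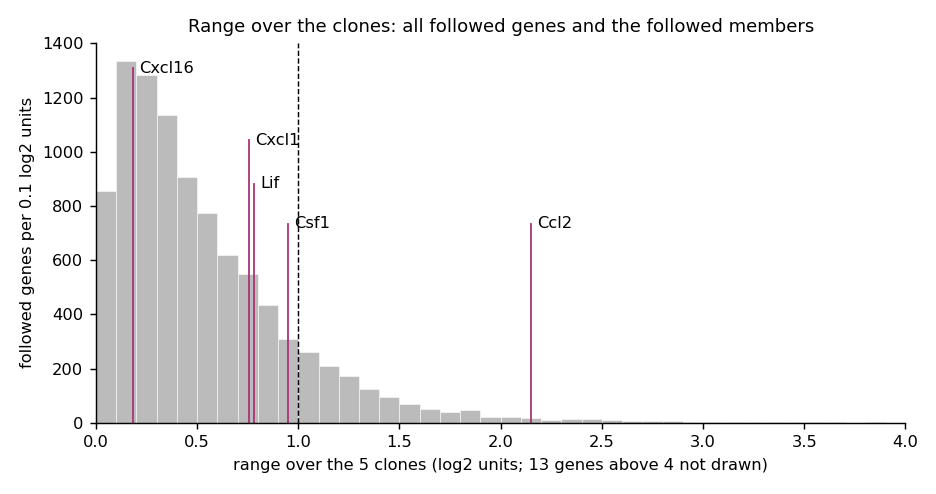
Histogram of the range over the 5 clones (log2 units, x axis) for the followed genes, in bins of 0.1, with the number of genes on the y axis; vertical lines mark the 5 followed chemokine and cytokine genes and the dashed line a range of 1. Ccl2 at 2.15 stands in the tail, while Csf1, Lif and Cxcl1 lie between 0.76 and 0.95 and Cxcl16 at 0.18.

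Ccl7, a second monocyte chemokine, is the next protein-coding gene to Ccl2 on chromosome 11 in the RefSeq order. Its ratio was 0.802 in clone 1D, 0.801 in 11B, 0.805 in 20B, 0.813 in 30 and 0.798 in 42, all below the floor. The ratios of clones 1D, 11B and 20B recurred unchanged on 23 other probe sets. Ccl7 was not followed, because it was below the floor and ranged over 0.03 log2 units, and nothing can be read about whether it shared the pattern of its neighbour. Ccl11, the eotaxin gene that follows on the chromosome, had a log2 ratio of 0.38 in clone 20B and of -0.15 to -0.16 in the others. Its clones other than 20B lay below the floor, so a lower value in clone 42 could not have been seen.

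The genes whose pattern was most like that of Ccl2 were sought by the root mean square (RMS) difference of centred log2 ratios over the 5 clones. The nearest was Col1a1, a chain of the main fibrillar collagen, at 0.23 log2 units over 2 probe sets. Its centred values were -2.17 in clone 42, -0.26 in 11B and 0.29 in 30, against -1.84, -0.65 and 0.31 for Ccl2. The next were Sqor, a mitochondrial enzyme of sulfide oxidation, also at 0.23, and Pparg, the regulator of fat cell differentiation, at 0.29, each on 1 probe set. All 3 had clone 42 lowest, at -1.60 for Sqor and -1.69 for Pparg. With 5 clones and 9435 genes, such likeness is a description only.

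**Figure D2:**
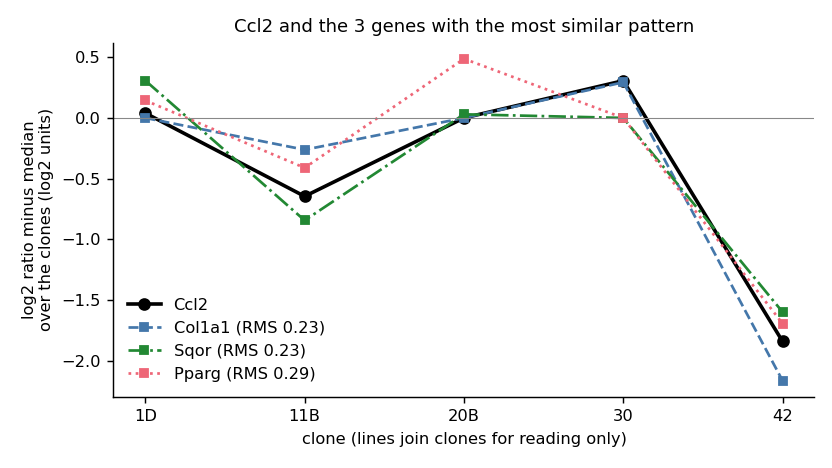
Log2 ratio minus the median over the clones (y axis, log2 units) in each clone (x axis) for Ccl2 and the 3 genes with the smallest root mean square difference from it. All 4 genes are lowest in clone 42, between -1.60 and -2.17, and the lines join clones only for reading.

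Cxcl1, the neutrophil chemokine, was highest in clone 30 on each of its 3 probe sets, but by very different amounts. On probe set 1457644_s_at the ratios were 1.020 in clone 1D, 0.715 in 11B, 1.000 in 20B, 2.114 in 30 and 0.931 in 42. On probe set 1419209_at they were 1.066, 0.829, 1.000, 1.103 and 0.989, and on 1441855_x_at 1.007, 0.982, 1.000, 1.202 and 0.994, in the same order of clones. Clone 11B was lowest on all 3. Averaged, clone 30 had a log2 ratio of 0.50 ± 0.51 (SD over 3 probe sets) and clone 11B -0.26 ± 0.23. Clone 30 exceeded the median of the others by 0.52 log2 units and the next clone, 1D, by 0.45.

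The excess of Cxcl1 in clone 30 rested on 1 probe set. The suffixes _s_at and _x_at mark probe sets that can share sequence with other transcripts, and without them the deviation was 0.15, within the spread of 0.34. Clones 42, 20B and 1D lay within 0.09 log2 units of each other, and clone 11B lay 0.22 below clone 42, also within that spread. Cxcl1 lies in the cluster of CXC chemokine genes on chromosome 5. Its neighbours Cxcl15, Cxcl3, Pf4 and Cxcl2 could not be followed.

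Cxcl5, the other neutrophil chemokine, lay below the floor in all clones, with ratios of 0.798 in clone 1D, 0.797 in 11B, 0.795 in 20B, 0.809 in 30 and 0.793 in 42. Cxcl16 is a membrane-bound chemokine and scavenger receptor that is shed by Adam10. On probe set 1418718_at it had 0.972 in clone 1D, 0.970 in 11B, 20B and 42, and 1.100 in clone 30. Only clone 30 was above the floor, by 0.18 log2 units over the median of the others, which is within the spread of a probe set. The other probe set, 1449195_s_at, lay at 0.710 to 0.721, with clone 30 lowest.

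Lif, which keeps embryonic stem cells undifferentiated and acts on heart muscle through gp130, was highest in clone 30. On probe set 1421207_at the ratio was 0.894 in clone 1D, 1.000 in 11B, 0.996 in 20B, 1.538 in 30 and 1.005 in 42. Clone 30 stood alone, 0.61 log2 units above the next clone, while clone 1D was 0.16 below its neighbour. The ratios of clones 11B, 20B and 42 recurred unchanged on 70 other probe sets. They were a shared level, so the size of the difference, 1.54-fold over the median of the others, is uncertain. The second probe set, 1450160_at, lay below the floor at 0.457 to 0.462 in all clones.

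The other cytokines of the gp130 family could not be followed. Il6, the main inducer of the acute phase response, lay at 0.483 in clones 1D, 11B and 30 and at 0.481 in 20B and 42. Il11, a cytokine linked to fibrosis of the heart, was 0.953 in clone 1D, 0.943 in 11B, 0.939 in 20B, 0.981 in 30 and 0.942 in 42. Clone 30 was highest there by 0.06 log2 units over the median of the others, below the floor and within the spread. A value below the floor does not show that a transcript was absent.

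Csf1, the growth factor of macrophages, was lowest in clone 30. On probe set 1448914_a_at the ratios were 1.282 in clone 1D, 0.872 in 11B, 1.000 in 20B, 0.384 in 30 and 1.276 in 42. On 1425155_x_at they were 1.082, 0.884, 1.000, 0.554 and 1.173, and on 1460220_a_at 1.117, 1.000, 1.000, 0.699 and 1.057, in the same order. Clone 30 was lowest on these 3 probe sets and clones 1D and 42 were highest. The remaining probe set, 1425154_a_at, disagreed: clone 30 had 0.989 beside 1.000 in 1D and 1.003 in 20B, with 0.840 in 11B and 1.300 in 42. The 3 ratios of clones 1D, 20B and 30 recurred on 883 other probe sets, so they were a shared level and not 3 measurements of Csf1.

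Averaged over the 4 probe sets, Csf1 in clone 30 was -0.69 ± 0.57 (SD over 4 probe sets), 1.71-fold below the median of the other clones (deviation -0.77 log2 units). Without probe set 1425154_a_at the deviation was -1.02. Clone 30 lay 0.53 log2 units below the next clone, 11B. The steps from 11B to 20B (0.16), to 1D (0.16) and to 42 (0.10) were within the spread of 0.34. All 4 probe sets of Csf1 carry a suffix that marks alternative or shared transcripts, and with such probe sets left out Csf1 could not be followed.

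Il33 had 1 probe set, below the floor in every clone. Its ratio was 0.722 in clone 1D, 0.720 in 11B, 0.937 in 20B, 0.714 in 30 and 0.717 in 42. Clone 20B stood 0.38 log2 units above the median of the others, little more than the spread of 0.34, and the others lay together. Since all 5 values were below the floor, Il33 was not counted among the followed genes.

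**Figure D3:**
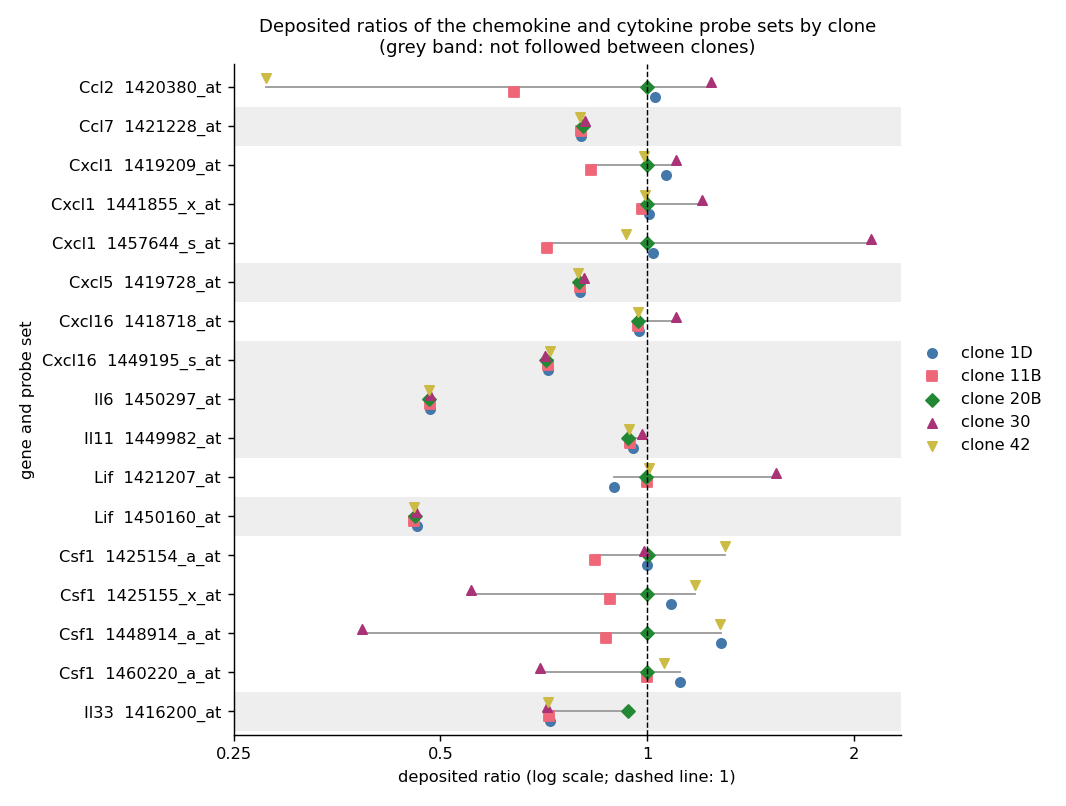
Deposited ratio (x axis, log scale) of each of the 17 probe sets of the 10 genes (y axis), with a symbol per clone, shifted vertically for reading, and a line from the lowest to the highest clone. Clone 42 is far left for Ccl2 (0.279), clone 30 far right on 1 probe set of Cxcl1 (2.114) and left on 3 of 4 probe sets of Csf1, and the 7 probe sets on grey were not followed.

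Taking the genes by clone, clone 30 held most of the differences. There, 3 of the 5 followed genes (Ccl2, Lif and Cxcl1) lay at least 0.5 log2 units, or 1.41-fold, above the median of the other clones, against 6.19% of all followed genes. Csf1 lay that far below, 1 of 5 against 6.89%. The part of the lower Actb control of clone 30 (0.743) in the low Csf1 was not tested. Ccl2 belongs to the 3 partly because clones 42 and 11B were low: it was 0.63 above the median of the others, but only 0.27 above clone 1D. Without clone 11B, and likewise without clone 42, Lif alone was left above (0.63), with Cxcl1 at 0.496 and Ccl2 at 0.31. In clone 42 and in clone 11B, Ccl2 alone passed the size, downward, 1 of 5 against 3.94% and 4.71% of all followed genes; above, it was 0 of 5 against 6.38% and 4.46%. In clones 1D and 20B no gene passed it in either direction; the shares of all followed genes there were 5.57% and 4.30% above and 2.36% and 2.09% below. The median deviation of the 5 genes was 0.52 in clone 30 and -0.24 in clone 11B, against -0.012 and -0.0015 over all followed genes. The 0.52 is the value of Cxcl1, which rested on 1 probe set. Without suffix-marked probe sets (_a_at, _s_at or _x_at) 2 genes lay above in clone 30 and 0 below, Csf1 being no longer followed.

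**Figure D4:**
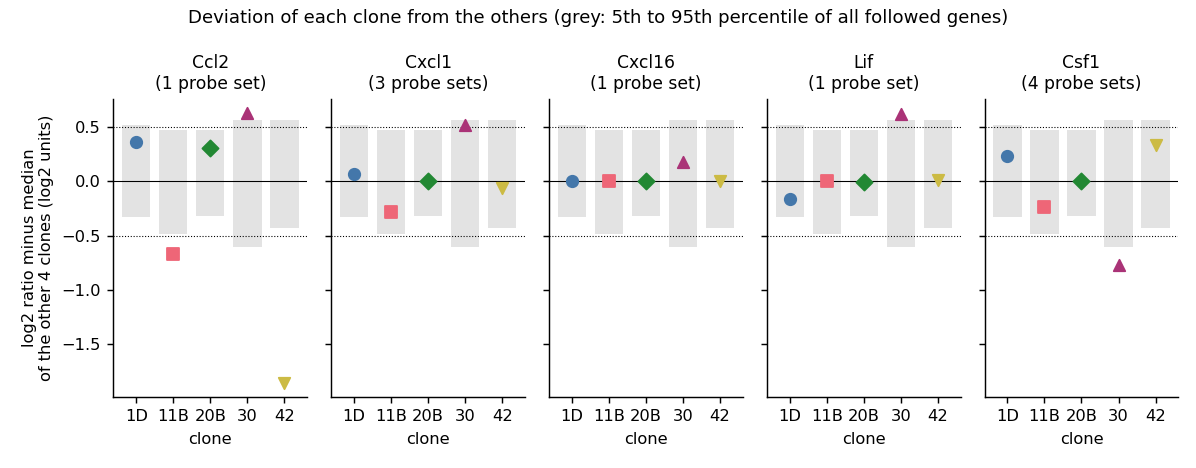
Log2 ratio of each clone minus the median of the other 4 (y axis, log2 units) for the 5 followed genes, 1 panel each, with clones on the x axis; grey boxes span the 5th to 95th percentile of all followed genes in that clone and dotted lines mark a deviation of 0.5. Clone 30 is above the upper line for Ccl2, Cxcl1 and Lif and below the lower one for Csf1, and Ccl2 in clone 42 lies at -1.86.

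Markers of other cell types were read beside these differences. Of 6 mesothelial markers with a probe set 4 were followed, and 3 of them lay at least 0.5 log2 units above the others in clone 30, against 6.19% of all followed genes. Krt8 lay there at 1.55, Upk3b at 1.19, Msln at 0.82 and Krt18 at -0.02. Upk3b was followed only through clone 30, at a ratio of 1.361 beside 0.568 to 0.602 below the floor. The size of its excess is therefore uncertain, and its other probe set was flat. Msln also passed the range filter only through clone 30, at 1.757 beside 0.977 to 1.005 in the other clones. The share of all followed genes is therefore no fair background for the count of mesothelial markers. Krt8 was not particular to clone 30: it also lay at 0.67 in clone 1D and -0.75 in clone 11B. Without suffix-marked probe sets (_a_at, _s_at or _x_at) 2 mesothelial markers were followed and 1 was above in clone 30. Once ratios under the floor were raised to it, 2 were above.

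Of 7 smooth muscle and pericyte markers 3 were followed, and in clone 30 Tagln lay at 1.83, Acta2 at 0.21 and Myh11 at 0.01. Tagln was not particular to clone 30, since it also lay at 0.60 in clone 11B. In clone 42 the fibroblast markers Col1a1 and Pdgfra went in opposite directions, at -2.17 and 0.99. The part of these markers in the values of Ccl2, Cxcl1, Lif and Csf1 was not tested.

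Of 14 macrophage and monocyte markers 4 were followed, Fcgr1, Adgre1, C1qb and Csf1r, with ranges of at most 0.29 log2 units. The mean deviation of these markers lay between -0.04 and 0.03 in the 5 clones. The other 10, among them Ptprc, Cd68, Lyz2 and Tyrobp, were flat or below the floor; Ptprc had ratios of 0.513 to 0.518 on 1 probe set and 0.736 to 0.747 on the other, and Tyrobp of 0.480 to 0.481. Of 6 mast cell markers 3 were followed. Tpsb2 lay at 0.91 in clone 1D, on a probe set where the other clones were below the floor. In clone 11B Hdc lay at 0.78 and Ms4a2 at 0.27. These 2 passed the range filter only through clone 11B, at ratios of 1.718 and 1.199. The other clones lay at 0.996 to 1 for Hdc and 0.987 to 1.003 for Ms4a2, and the other probe set of each was not followed. The 2 followed lymphocyte markers, Ms4a1 and Cd3e, ranged over 0.19 and 0.06. Ratios give no level to sum. Of the endothelial markers 1 of 8 was followed, Egfl7, with a range of 0.11. Of the labelled markers, Kit was highest in clone 20B at 1.183 on its followed probe set, Pou5f1, the gene of oct-4, lay below the floor at 0.572 to 0.580, and Ly6a, the gene of Sca-1, had no probe set assigned to it alone.

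The receptors of these factors were taken next. Of 15 receptor and coreceptor genes with a probe set 7 were followed, and 4 of the 7 ranged over 1 log2 unit or more, against 13.0% of all followed genes. Without clone 30 the count was 1 of 7 (Sdc4), without clone 11B it was 2 of 7, and with every probe set averaged it was 1 of 15 (Sdc1). Ccr1 passed the filter only through clone 30 and Sdc4 only through clone 42. The share of all followed genes is therefore no fair background for this count. Ccr1, a receptor for Ccl7 and other CC chemokines, had ratios of 0.573 in clone 1D, 0.513 in 11B, 0.575 in 20B, 2.001 in 30 and 0.568 in 42 on 1 probe set. Ccr1 was followed only through clone 30, the only one above the floor, and the size of its excess (1.81 log2 units) is uncertain because the other clones were below it. A further probe set of Ccr1 was flat, at 0.995 to 1.004. Il1rap, the coreceptor of the Il33 receptor, was lowest in clone 30, with ratios of 1.000 in 1D, 1.027 in 11B, 1.334 in 20B, 0.464 in 30 and 0.958 in 42. Its 4 other probe sets were not followed.

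The heparan sulfate proteoglycans that hold chemokines at the cell surface differed too. Sdc1 was higher in clone 30 by 0.73 log2 units over 4 probe sets, on all of which clone 30 was highest. Sdc4 was higher in clone 42, with a ratio of 1.957, by 0.98 log2 units on 1 probe set. Its other clones lay between 0.971 and 1.003, and the ratios of 1D, 20B and 30 recurred on 883 other probe sets. Ccr2, the receptor of Ccl2, and Cxcr2, that of Cxcl1 and Cxcl5, could not be followed, nor could Lifr. Of the remaining receptors, Il6st, which encodes gp130, ranged over 0.40 log2 units, highest in clone 42. Il6ra and Csf1r ranged over 0.12 and 0.11. Il6st passed the filter only through clone 42 on each followed probe set. Its ratios there were 1.161 beside 0.797 to 0.809 and 1.181 beside 0.985 to 1.002. Csf1r passed it only through clone 1D, at 1.069, and Il6ra only through clone 42, at 0.936.

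A list of signal transducers, with the proteases Adam10 and Adam17 that shed ligands and receptors, was read next. Of 26 with a probe set 17 were followed, and 5 lay at least 0.5 log2 units below the others in clone 11B, against 4.71% of all followed genes. With every probe set averaged 3 lay that far below there. Without suffix-marked probe sets 4 of 11 did, Stat5b being no longer followed. They were, in the first count, Jak1, the kinase bound to gp130, at -1.30, Cebpb, a transcription factor of cytokine genes, at -1.11, Adam17 at -0.74, Stat5b at -0.71, and Adam10 at -0.66. The Actb control of this clone was the lowest (0.597), and its part in these values was not tested. Jak1 was also low in clone 30, at -1.52, and Adam17 at -0.67, against 6.89% of all followed genes that far below there. The Actb control of clone 30 was 0.743, and its part there was not tested either.

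The probe sets of these genes did not always agree. On Jak1, 1433804_at gave 2.444 in clone 1D, 0.389 in 11B, 1.926 in 20B, 0.548 in 30 and 1.000 in 42, and 1433805_at gave 1.000, 0.615, 1.011, 0.320 and 1.073. Clones 11B and 30 were the lowest on both, in opposite order. On Adam17 the clones differed on 1421857_at, from 0.435 in 11B to 1.962 in 42, and hardly on 1421859_at, from 0.935 to 1.056. On Cebpb clone 11B was lowest at 0.362 on the suffix-marked 1427844_a_at and at 0.626 on 1418901_at. Socs3, the feedback inhibitor of gp130 signalling, was higher in clone 42 by 1.00 log2 units over 3 probe sets, with clone 42 highest on each. On 1416576_at the ratios of clones 1D, 11B and 30 were a shared level that recurred on 31 other probe sets.

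Target genes were split between clones. Of 13 followed NF-kappaB targets 3 ranged over 1 log2 unit or more, against 13.0% of all followed genes. With every probe set averaged, and without suffix-marked probe sets, 1 did, Mmp3. Mmp3, a matrix metalloproteinase, had ratios of 1.000 in clone 1D, 2.183 in 11B, 0.664 in 20B, 0.134 in 30 and 3.128 in 42. Clone 30 had the lowest ratio and clone 42 the highest. Cd44, the hyaluronan receptor, was also lowest in clone 30, at a ratio of 0.266, a deviation of -2.02. Its value rests on 1 suffix-marked probe set; the others lay below the floor, and with every probe set averaged its range went from 2.17 to 0.55. Nfkbiz, a nuclear cofactor of NF-kappaB, was highest in clone 1D (0.96) and lowest in 20B (-0.90).

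Nfkbia, which encodes the inhibitor of NF-kappaB and is its early target, disagreed between probe sets. On 1420088_at clone 30 was highest at 2.096, and on 1448306_at clone 42 was highest at 1.605 with clone 30 at 0.753. Its average was 0.50 above the others in clone 42 and 0.56 below in clone 11B (deviation -0.56). Over the 13 targets the median deviation was 0.02 in clone 30 and 0.19 in clone 42, against -0.012 and 0.0036 over all followed genes.

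Of 11 followed STAT3 targets 2 ranged over 1 log2 unit or more, against 13.0% of all followed genes. They were Socs3 and Bcl2l1, which encodes a protein that blocks apoptosis. Without suffix-marked probe sets their ranges were 0.72 and 0.66, and 0 of 10 reached 1 log2 unit. Bcl2l1 lay at -1.26 in clone 11B and -1.23 in clone 30 over 3 probe sets. Probe set 1420888_at showed less than the others, with 0.998 in 11B and 0.796 in 30. Its ratios of clones 1D, 11B and 42 recurred on 1212 other probe sets. The 0.998 in 11B was thus a shared level and not a measurement of Bcl2l1. Hif1a, the oxygen-sensing factor, was at -0.73 and Fos, an immediate early factor, at -0.57 in clone 11B. With Bcl2l1 these were 3 of the 11 that far below in that clone, against 4.71% of all followed genes. The value of Hif1a came mostly from probe set 1448183_a_at, with a ratio of 0.227 in clone 11B, while the other probe sets had 0.982 and 0.998. Both of these were shared levels, tied with other clones on 10 and 485 other probe sets. Without suffix-marked probe sets, and likewise with the probe set highest on average, Fos alone was left below in clone 11B. The Actb control was lowest in that clone (0.597) and was 0.743 in clone 30, and its part was not tested. In clone 30 the median deviation of the 11 targets was -0.22, against -0.012 over all followed genes, and 1 of the 11, Bcl2l1, lay at least 0.5 log2 units below the others, against 6.89%. Without suffix-marked probe sets 0 of 10 did.

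**Figure D5:**
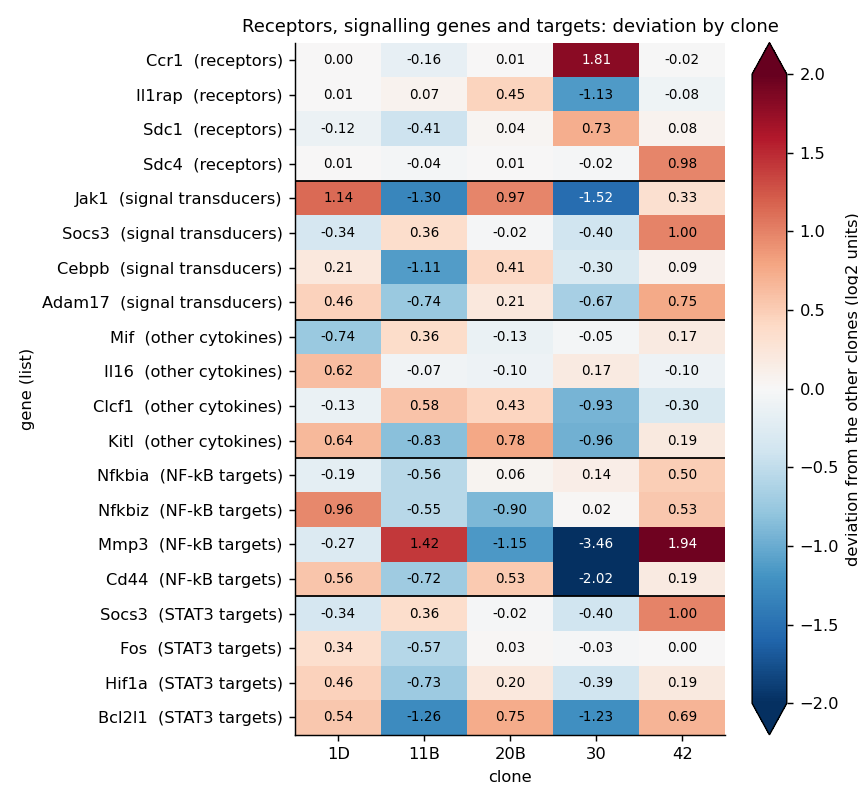
Deviation of each clone (x axis) from the median of the other 4, as colour and printed value (log2 units), for the 4 followed genes with the largest range in each of 5 lists (y axis); Socs3 stands in 2 of them. Colours end at 2 log2 units. Ccr1 and Sdc1 are high in clone 30, Mmp3 and Cd44 low there, and Jak1 and Bcl2l1 are low in clones 11B and 30.

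Other chemokines and cytokines mostly could not be followed. Of 50 with a probe set 15 were followed, and 3 ranged over 1 log2 unit or more (Clcf1, Kitl and Mif), against 13.0% of all followed genes. Their median range was 0.43, against 0.41 over all followed genes. With every probe set averaged Clcf1 alone reached 1 log2 unit, with Kitl at 0.94 and Mif at 0.33. Clcf1, a cytokine of the same gp130 family as Lif, went the other way from Lif in clone 30, at -0.93 log2 units over 3 probe sets, on all of which clone 30 was lowest. On probe set 1450262_at its ratio was 0.400 there. Kitl, the ligand of c-kit, lay at -0.96 in clone 30 and -0.83 in clone 11B, and at 0.78 in 20B and 0.64 in 1D. Most of this came from probe set 1426152_a_at, with 1.509 in 1D, 0.179 in 11B, 1.425 in 20B, 0.227 in 30 and 1.000 in 42, while on 1448117_at all clones lay between 0.990 and 1.030. On the latter the ratios of 1D, 11B, 30 and 42 were a shared level that recurred on 19 other probe sets. The Actb control was 0.597 in clone 11B and 0.743 in clone 30, and its part in these values was not tested.

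Mif, a cytokine that acts through Cd74, had ratios of 0.630 in clone 1D, 1.263 in 11B, 0.963 in 20B, 1.000 in 30 and 1.106 in 42. Clone 1D was lowest, at -0.74 log2 units from the others. Il16, a chemoattractant of CD4+ cells, was highest in the same clone, by 0.62 log2 units. In clone 30, 0 of the 15 lay at least 0.5 log2 units above the others, against 6.19% of all followed genes, and 2, Clcf1 and Kitl, lay that far below, against 6.89%. With the probe set highest on average 0 of the 15 lay below.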

How the data were processed

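The data are 1 array per clone for 5 clones, each its own group. The tools listed in the submitters' processing notes are RMA and GCRMA, with no role or version. The authors' deposited values are read as linear ratios: no header or label states the unit, but the median over the clones was exactly 1 for 18926 probe sets, below 1 for 26175 and above 1 for 0. Levels and detection cannot be recovered. Probe sets with 1 symbol (34958) were named from the array annotation; all 10 genes matched RefSeq gene IDs. Log2 ratios of a gene's followed probe sets were averaged (Python 3.11.15, pandas 2.3.3). Flat probe sets (range up to 0.05 log2 units) and 64 controls were left out. A clone's deviation is its value minus the median of the others. The calculations were tested on simulated ratios with known changes and random error. The simulation held no floor, no ties and no filter, so it covers the arithmetic only. With 1 array per group there was no test and no p-value. Ties are identical deposited ratios in at least 3 clones that recur on at least 5 other probe sets. Named were the 10 genes, the 4 followed genes of each list with the largest range and the 3 genes nearest to a gene ranging over 1 log2 unit; neighbours, markers and genes past a size were also named, after their values were seen. Genes and lists were chosen with earlier results of these data known. Alternatives covered averaging, normalization, filters, the floor, suffixes, ties and leaving out each clone.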

Additional observations from a re-analysis of the deposited data

How the results depend on the processing

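Ccl2 kept a deviation past 0.5 log2 units in 15 of 15 alternative settings in clone 42 (-1.88 to -1.84) and in clone 11B (-0.69 to -0.65). In clone 30 the deviation of Ccl2 passed it in 13 of 15 (0.31 to 0.95), of Lif in 13 of 14 (0.32 to 0.63), of Csf1 in 13 of 14 (-1.02 to -0.02) and of Cxcl1 in 10 of 15 (0.15 to 1.13); none changed sign. With the probe set highest on average, 2 of the genes ranged over 1 log2 unit or more, in place of 1, and 0 lay below in clone 30, in place of 1. Without suffix-marked probe sets 0 lay below there, because Csf1 could not be followed. Without probe sets holding tied clones, an alternative chosen after seeing the data, 2 genes had that range. Lif could not be followed there, because its only followed probe set held tied clones, so its count is over 14 settings. With every probe set averaged, 681 genes of the series ranged over at least 1 log2 unit, in place of 1229. Leaving out 1 clone at a time gave 772 to 1067 such genes, fewest without clone 30; among the 10 genes it gave 0 to 1 with that range (0 without clone 42), 1 to 3 above the others in clone 30 (1 without clone 11B and 1 without clone 42), 0 to 1 above in clone 20B (1 without 1D or 30) and 0 to 1 above in clone 1D (1 without 20B or 30). Of 737 values of single genes compared, 62 moved by more than the spread of a probe set. The causes were not tested. No paired analysis was possible because each clone has 1 array. Ratios near or below the floor limit what can be read for Ccl7, Cxcl5, Il6, Il11 and Il33.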
